A study of Mus musculus with 8 samples.

Results

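The p38 mitogen-activated protein kinases (MAPKs) and the kinases directly above and below them were followed at the RNA level in DC-restricted progenitors (CDPs) of obese and control mice. The genes were chosen by symbol and not by a rule on their measured values, with earlier results of these data known. They are the 4 p38 kinases Mapk14 (p38α), Mapk11 (p38β), Mapk12 (p38γ) and Mapk13 (p38δ), the activating kinases Map2k3 (MKK3) and Map2k6 (MKK6), and the downstream kinases Mapkapk2 (MK2) and Mapkapk3 (MK3). Of these 8 genes, 7 were among the 16119 genes of the count table and all 7 passed the filter on low counts. Mapk12 had no row in the table and was not analysed here.

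CDPs were flow-sorted from bone marrow (BM) as Lin-, c-kit intermediate, Sca1 low, CD115+ and Flt3+ cells, about 50000 per replicate, and their total RNA was sequenced. The HFD group held 4 libraries from diet-induced obese C57BL/6 mice (C57BL/6J in the study's methods) given a high fat diet (60 kcal% fat), labelled as diet-fed for 16 weeks. The CF group held 4 libraries from C57BL/6 mice of the same background on control chow (10 kcal% fat), labelled as age-matched controls. According to the study's methods the mice were males bought as obese and control animals, and the replicates were independent. Whether a replicate held 1 mouse or a pool is not given in the sources used here, and neither group received an inhibitor or allergen for these libraries as far as the labels say. The comparison of HFD with CF asks whether the RNA levels of the p38 pathway's kinases differed with the diet.

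The p38 kinases relay stress and cytokine signals. MAP3 kinases activate MKK3 and MKK6, which phosphorylate a threonine and a tyrosine of the p38 activation loop, and active p38 phosphorylates MK2, MK3 and several transcription factors. MK2 and MK3 in turn keep inflammatory mRNAs with AU-rich elements stable and translated, by acting on RNA binding proteins such as tristetraprolin. Phosphorylation is not seen in RNA, so the values below are transcript levels and not kinase activity.

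Libraries held 28203651 to 38969160 counts in HFD and 32575696 to 48409689 in CF. Of the genes that mark the sort, Flt3 lay between 88.8 and 378 CPM (counts scaled to the size of the library, with TMM factors), Csf1r (CD115) between 79.4 and 133, Kit between 34.2 and 53.6 and Ly6a (Sca1) between 1.37 and 3.25. HFD replicate 1 stood apart from the rest. It had the highest level of 15 of 15 neutrophil marker genes and of 8 of 8 erythroid genes (summed 414 CPM against 68.6 to 109 in the other libraries) and the lowest level of Flt3. Its dendritic cell list was the lowest (628 CPM against 831 to 1183), and its T and NK cell list (30.5 CPM against 8.74 to 20.8) and mast cell and basophil list (72.1 CPM against 11.3 to 62.1) were the highest. It lay at one end of the first principal component (-89.8 against -16.5 to 50.4 in the other 7 libraries). The summed level of the neutrophil list spanned 1.12e3 to 2.06e4 CPM among the HFD libraries and 2.19e3 to 7.01e3 CPM among those of CF, with S100a8 between 245 and 5155 CPM and Ngp between 180.0 and 4383 CPM. The second component separated the diets, at 23.0 to 40.4 in HFD and -44.1 to -20.7 in CF. In bulk RNA, more cells of a type and more RNA per cell cannot be told apart. For the members, results that moved in sign, in call or by more than 1.5 times without HFD replicate 1 are given also without it.

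The p38 genes are close relatives, and the stretch that their activating kinases act on shows how alike they are. The coding bases from position 511 to 570 of Mapk14, Mapk11 and Mapk13, and from 520 to 579 of Mapk12, are printed from GENCODE transcripts on GRCm38, 5′ to 3′, with the codons of the phosphorylated threonine-glycine-tyrosine motif in capitals (codons 180 to 182, and 183 to 185 in Mapk12).
Mapk14: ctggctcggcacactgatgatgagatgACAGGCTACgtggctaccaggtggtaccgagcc
Mapk11: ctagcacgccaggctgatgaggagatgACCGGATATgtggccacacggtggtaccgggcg
Mapk12: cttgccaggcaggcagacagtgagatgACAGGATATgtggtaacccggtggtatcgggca
Mapk13: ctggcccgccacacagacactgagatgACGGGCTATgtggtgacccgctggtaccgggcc
The windows of any pair shared 71.7% to 80.0% of their 60 bases. At the read length of 75 bases the measured genes could nevertheless be told apart, since 0 of 4662 distinct 75-base words of Mapk14 transcripts, 0 of 3105 of Mapk11 and 0 of 3651 of Mapk13 occurred in transcripts of another gene. The same held for Map2k3, Map2k6, Mapkapk2 and Mapkapk3, with 0 shared words each, while Mapk12, which has no row in the table, shared 60 of 4194 words (1.43%) with transcripts of other genes.

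The 7 measured genes differed widely in level. On the scale per length (CPM per kb of exon, mean over 8 libraries), Mapkapk2 was highest at 28.4 ± 2.26 (SD, n = 8), at percentile 93.2 of all genes tested. Mapk14 followed at 11.4 ± 3.05, Mapkapk3 at 5.83 ± 1.66 and Map2k3 at 4.22 ± 1.88. Map2k6 lay at 1.43 ± 0.25, Mapk13 at 1.23 ± 1.38 and Mapk11 at 0.19 ± 0.10. Without HFD replicate 1 the mean of Mapk13 was 0.77 and that of Map2k6 was 1.48. The order of Mapkapk2, Mapk14, Mapkapk3 and Map2k3 was the same in all 8 libraries. Over all 8 libraries Map2k6 and Mapk13 did not differ beyond their spread, and Mapk13 was above Map2k6 in HFD replicate 1 and below it in the other 7 libraries. Mapk13 also fell below Mapk11 in HFD replicate 4. Mapk14 was thus the highest of the 3 measured p38 transcripts, and Mapkapk2 was above Mapkapk3, in every library.

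**Figure D1:**
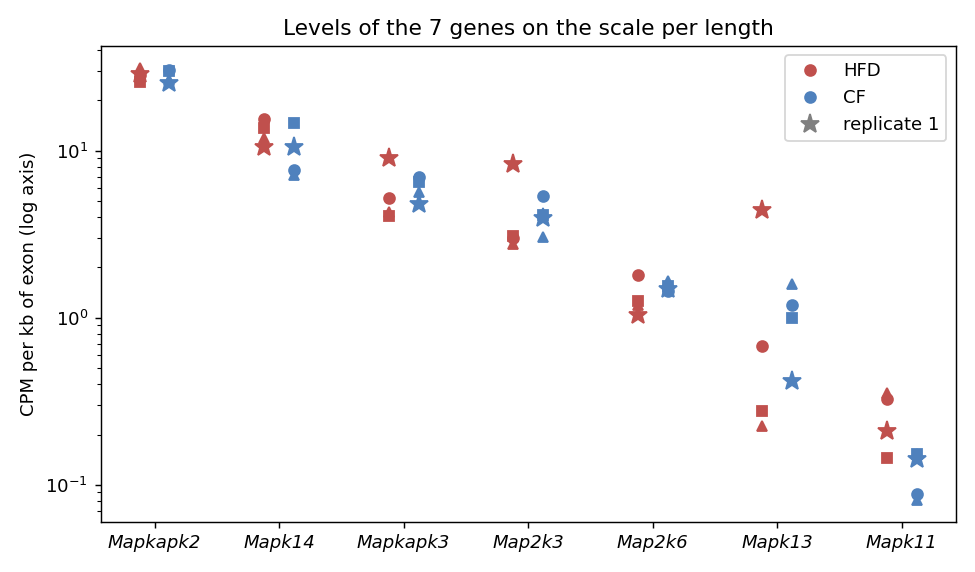
Level of the 7 genes in CPM per kb of exon (log axis) in each of the 8 libraries, HFD in red and CF in blue, with replicate 1 of each diet as a star. Mapkapk2 is highest and Mapk14 second in every library, and Mapk13 spans the widest range.

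No member was called different between HFD and CF. By edgeR's quasi-likelihood test with Benjamini-Hochberg adjustment over 15837 genes, 0 of 7 passed an adjusted p of 0.05, beside 0.423% of all genes tested, which were 67 genes lower in HFD and 0 higher (510 higher at an unadjusted p under 0.05). The count lower was 0 or 1 by edgeR when any 1 of 6 libraries was left out. It was 166, with 34 higher, without HFD replicate 1, and 154 without CF replicate 4. It was 0 with protein-coding genes alone by edgeR (252 at an unadjusted p under 0.05) and 0 in the linear model on log2(FPKM + 1) (568). DESeq2 called 498 lower and 71 higher. At an unadjusted p under 0.05 there was 1 member, Mapk11, against 8.56% of all genes (3.22% higher and 5.34% lower in HFD) and 5.38% of protein-coding genes. Without HFD replicate 1 there were 4 of 7, Mapk11, Mapk13, Map2k3 and Mapkapk3, against 14.6% of all genes. There was none by edgeR without HFD replicate 4, CF replicate 2 or CF replicate 4, nor with the replicate number as a block, and without HFD replicate 2 the 1 member was Map2k6. DESeq2 also called 0 of the 7. The CPM of the diets overlapped for each of the 7 members, while they were apart for 6.16% of all genes (2.58% higher and 3.58% lower). Under every alternative tried, the count of members called stayed at 0.

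Mapk14 lies on chr17:28691329-28748406 (GRCm38, plus strand) and encodes p38α, the most widely expressed form. Its level was 46.4, 67.5, 59.7 and 52.2 CPM in HFD replicates 1 to 4 and 46.0, 33.6, 64.0 and 31.2 CPM in CF replicates 1 to 4. All 4 HFD libraries were above the CF mean of 43.7 ± 15.0 (SD, n = 4), but CF replicate 3 lay among them. The HFD mean was 56.4 ± 9.16 (SD, n = 4), and the log2 fold change was 0.37 with an SE of 0.23 (edgeR, adjusted p = 0.78; exact two-sided permutation test, p = 0.17). Within CF alone the highest library held 2.05 times the lowest. Without CF replicate 3 the log2 fold change was 0.61 (SE 0.19, unadjusted p = 0.012, adjusted p = 0.40 by edgeR), without CF replicate 4 it was 0.24 (adjusted p = 0.999), and it was 0.60 when libraries were scaled by size alone (adjusted p = 0.33), a scaling that moved the median of all genes from 0.055 to 0.25.

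The neighbours of Mapk14 in pattern were sought among 7355 genes of at least 10 CPM. The 5 with the highest Pearson r of log2 CPM over the 8 libraries were Ice2 (0.96), 2610507B11Rik (0.96), Nras (0.95), Rlim (0.94) and Helz (0.92). Of these, Nras encodes a small GTPase above the ERK cascade and Ice2 a subunit of the little elongation complex. Helz was lowest in CF replicate 2 and the other 4 in CF replicate 4, and none of the 5 was called between the diets. These r values are a description of 8 libraries.

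Mapk11, the p38β gene at chr15:89142486-89149628 (minus strand), was the lowest of the 7 in mean level per length and had the largest log2 fold change by edgeR over all 8 libraries, though not without HFD replicate 1, where that of Mapk13 was larger in size, nor on log2(FPKM + 1), where its 0.21 was below the 0.57 of Mapk14. It held 19, 30, 16 and 42 counts in HFD replicates 1 to 4 and 16, 8, 14 and 9 in CF, which is 0.61, 0.94, 0.42 and 1.02 CPM against 0.41, 0.25, 0.44 and 0.23. HFD replicates 1, 2 and 4 were above all CF libraries, and HFD replicate 3 lay inside the CF range. The log2 fold change was 1.15 with an SE of 0.43 (edgeR, unadjusted p = 0.027, adjusted p = 0.44; exact permutation test, p = 0.057). Leaving out 1 library at a time gave 0.92 to 1.35, with an unadjusted p by edgeR of 0.074 without HFD replicate 2, 0.095 without HFD replicate 4, 0.069 without CF replicate 2 and 0.068 without CF replicate 4, and the sign held under all 18 alternatives that kept the gene. Its count passed the filter (0.288 CPM in at least 4 libraries) in 4 HFD and 2 CF libraries, so it was tested through the diet in which it was higher, and counts of 8 to 42 limit its precision.

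Mapk13 (p38δ) starts downstream of Mapk14 on the same strand, at chr17:28769297-28780233. In HFD replicate 1 it reached 13.96 CPM (435 counts), while HFD replicates 2 to 4 held 2.14, 0.87 and 0.70 CPM. The CF replicates held 1.32, 3.75, 3.15 and 5.02 CPM. HFD replicate 1 thus lay above the CF range, HFD replicate 2 inside it and HFD replicates 3 and 4 below it. Over all libraries the log2 fold change was 0.41 with an SE of 0.93 (edgeR, adjusted p = 0.96), and without HFD replicate 1 it was -1.43 with an SE of 0.53 (unadjusted p = 0.024, adjusted p = 0.25 by edgeR). Without replicate 1 of both diets it was -1.70 (adjusted p = 0.093). With all 8 libraries limma voom also gave a negative value, -0.63 (adjusted p = 0.89). Without HFD replicate 1, 9.76% of all genes were lower in HFD at an unadjusted p under 0.05. Mapk14 exceeded Mapk13 per length in every library, by 2.39-fold in HFD replicate 1 and by 4.48-fold to 53.3-fold in the other 7. The log2 ratio of Mapk14 to Mapk13 was 4.28 ± 2.09 in HFD and 3.34 ± 1.13 in CF (SD, n = 4; exact permutation test, p = 0.43, adjusted p = 0.84 over 4 ratios). The difference of 0.94 became 1.95 without HFD replicate 1 (exact permutation test, p = 0.086) and 0.45 without HFD replicate 4 (p = 0.77).

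**Figure D2:**
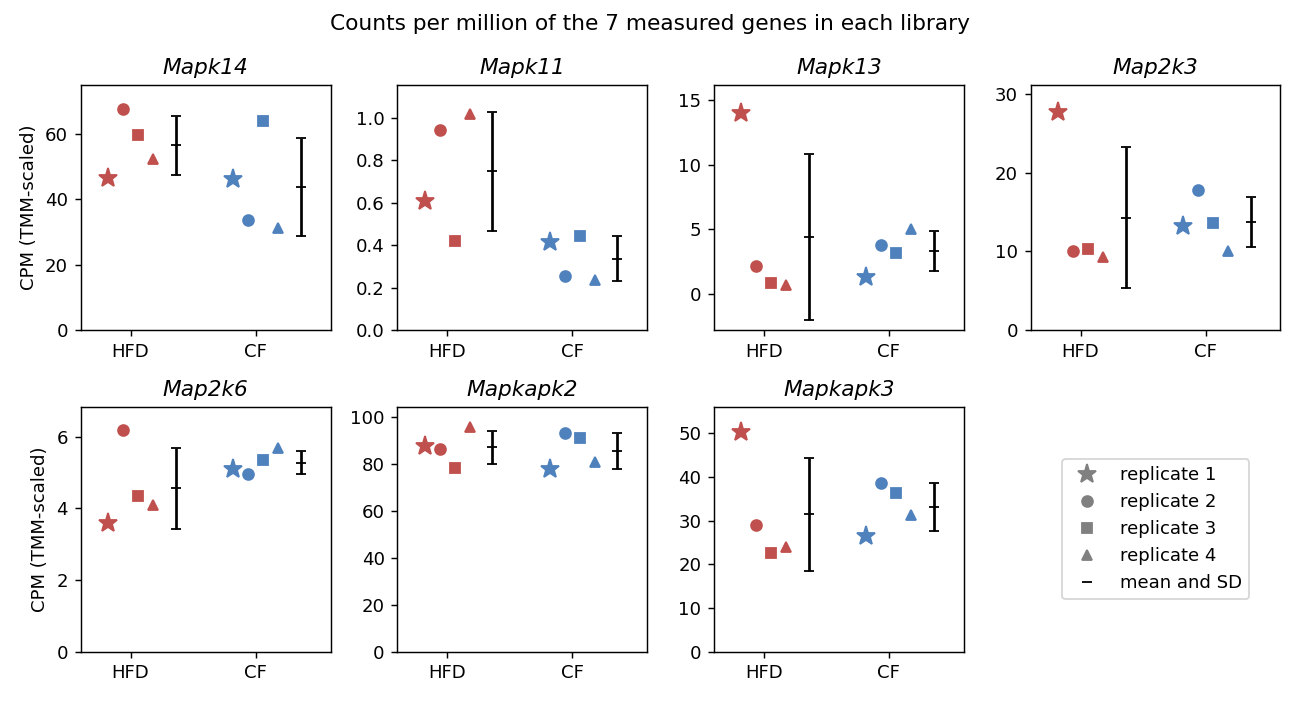
CPM (TMM-scaled) of the 7 genes in each library, HFD in red and CF in blue, with a marker for each replicate number and the mean and SD of each diet in black. HFD replicate 1 (star) is above all other libraries for Mapk13, Map2k3 and Mapkapk3, and the diets overlap for each gene.

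Of the activating kinases, Map2k3 (MKK3, chr11:60932033-60952811) held 27.7 CPM in HFD replicate 1, against 9.97, 10.3 and 9.22 in HFD replicates 2 to 4. The CF replicates held 13.2, 17.8, 13.6 and 10.1 CPM. HFD replicate 1 was the highest library, and the other HFD libraries lay at or below the lower end of CF. The log2 fold change was 0.063 (SE 0.37; edgeR, adjusted p = 0.99), and without HFD replicate 1 it turned to -0.48 (SE 0.19; unadjusted p = 0.030, adjusted p = 0.28).

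Map2k6 (MKK6, chr11:110399122-110525522) did not share that pattern and was lowest in HFD replicate 1. Its level was 3.59, 6.20, 4.36 and 4.10 CPM in HFD replicates 1 to 4 and 5.09, 4.96, 5.35 and 5.69 in CF. HFD replicates 1, 3 and 4 were below all CF libraries and HFD replicate 2 above them. The log2 fold change was -0.21 (SE 0.19; edgeR, adjusted p = 0.86), and it was -0.11 without HFD replicate 1, -0.39 without HFD replicate 2 and -0.015 with library size alone. Per length, Map2k3 exceeded Map2k6 in all 8 libraries, by 8.02-fold in HFD replicate 1 and 1.67-fold to 3.74-fold elsewhere. The log2 ratio did not differ between the diets beyond the spread of the replicates (1.57 ± 0.99 in HFD, 1.40 ± 0.42 in CF; SD, n = 4; exact permutation test, p = 0.89), and the difference turned from 0.16 to -0.32 without HFD replicate 1 (exact permutation test, p = 0.31).

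Mapkapk2 (MK2, chr1:131053700-131097826, minus strand) had the smallest spread of the 7 within HFD (CV 8.26%), while within CF Map2k6 had a smaller one (6.11% against 8.83%). It held 87.6, 86.6, 78.2 and 95.8 CPM in HFD replicates 1 to 4 and 77.7, 93.0, 91.1 and 80.7 in CF replicates 1 to 4, and the ranges coincided almost entirely. Its log2 fold change of 0.024 had an SE of 0.10 (edgeR, adjusted p = 0.98). Mapkapk3 (MK3, chr9:107254927-107289877, minus strand) held 50.4 CPM in HFD replicate 1 and 28.9, 22.5 and 24.0 in HFD replicates 2 to 4, against 26.4, 38.6, 36.3 and 31.3 in the CF replicates. The difference on the log2 scale was -0.077 (SE 0.26; edgeR, adjusted p = 0.98) and moved to -0.40 without HFD replicate 1 (unadjusted p = 0.029, adjusted p = 0.27). The log2 ratio of Mapkapk2 to Mapkapk3 was 2.41 ± 0.53 in HFD and 2.25 ± 0.12 in CF (SD, n = 4; exact permutation test, p = 0.63, adjusted p = 0.84 over 4 ratios). Without HFD replicate 1 the ratios of the diets were apart, with a difference of 0.41 in place of 0.16 (exact permutation test, p = 0.029, the smallest it can give, and adjusted p = 0.11 over 4 ratios), and without HFD replicate 4 the difference was 0.013. That of both kinases together to Mapk14 was 1.42 ± 0.35 in HFD and 1.83 ± 0.48 in CF (exact permutation test, p = 0.23, adjusted p = 0.84 over 4 ratios), and the difference of -0.41 was -0.25 without CF replicate 2 and -0.58 without CF replicate 3.

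Mapk13, Mapkapk3 and Map2k3 were compared across the libraries, with a Pearson r of log2 CPM over 8 libraries of 0.94 for Mapk13 and Mapkapk3, 0.88 for Map2k3 and Mapkapk3 and 0.77 for Mapk13 and Map2k3. These values share HFD replicate 1, which is highest for all 3 genes. Over the 7 libraries without it, r was 0.88, 0.73 and 0.46, in the same order. The 3 genes were also compared with the mean log2 CPM of the 15 neutrophil markers. Mapk13 followed that list with r = 0.98 and rho = 0.90 over 8 libraries (exact permutation test over pairings, adjusted p = 0.0016 for r and 0.032 for rho, over 14 relations). Mapkapk3 did so with r = 0.97 and rho = 0.95 (exact permutation test, adjusted p = 0.0016 and 0.016). Without the libraries farthest from the median of the list, HFD replicates 1 and 4, r was 0.95 for Mapk13 and 0.96 for Mapkapk3. For Map2k3 r was 0.81 (exact permutation test, adjusted p = 0.055) and dropped to 0.45 without these libraries, so that its relation rests on them. For Mapk14, Mapk11, Map2k6 and Mapkapk2, r with the list lay between -0.31 and 0.18, and without the same libraries it was 0.78 for Mapkapk2 and 0.50 for Map2k6.

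The neutrophil list itself was lower in HFD replicates 3 and 4 (mean log2 CPM 5.39 and 5.03) than in any CF library (6.00 to 7.59), and highest in HFD replicate 1 (9.06). With the list as a covariate beside the diet, chosen after seeing the data, the log2 fold change of Mapk13 was 0.069 with an SE of 0.23, that of Map2k3 was 0.11 and that of Mapkapk3 was 0.029. The fold changes of Mapk14 and Mapk11 were 0.33 and 1.09 in the same fit. None of the 7 was called in it. The part that cells or RNA of the neutrophil lineage, or of the other lists that were highest in HFD replicate 1, had in these levels was not tested. With the monocyte and macrophage list, Mapkapk3 gave r = 0.81 (exact permutation test, adjusted p = 0.055) and the other 6 members between -0.13 and 0.68. Without the libraries farthest from the median of that list, HFD replicates 1 and 3, r was 0.61 for Mapkapk3. It then lay between 0.079 and 0.64 for the other 6, with Mapk13 moving from 0.68 to 0.34.

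**Figure D3:**
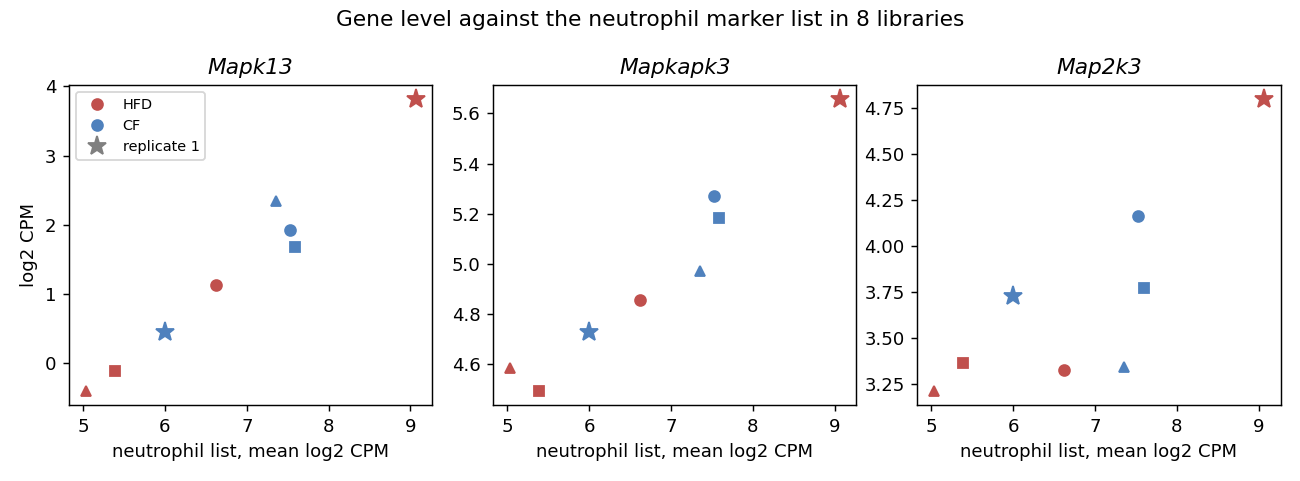
Log2 CPM of Mapk13, Mapkapk3 and Map2k3 against the mean log2 CPM of 15 neutrophil marker genes in the 8 libraries, HFD in red and CF in blue, with replicate 1 as a star. Mapk13 and Mapkapk3 rise along the list (r = 0.98 and 0.97), while Map2k3 scatters more (r = 0.81).

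**Figure D4:**
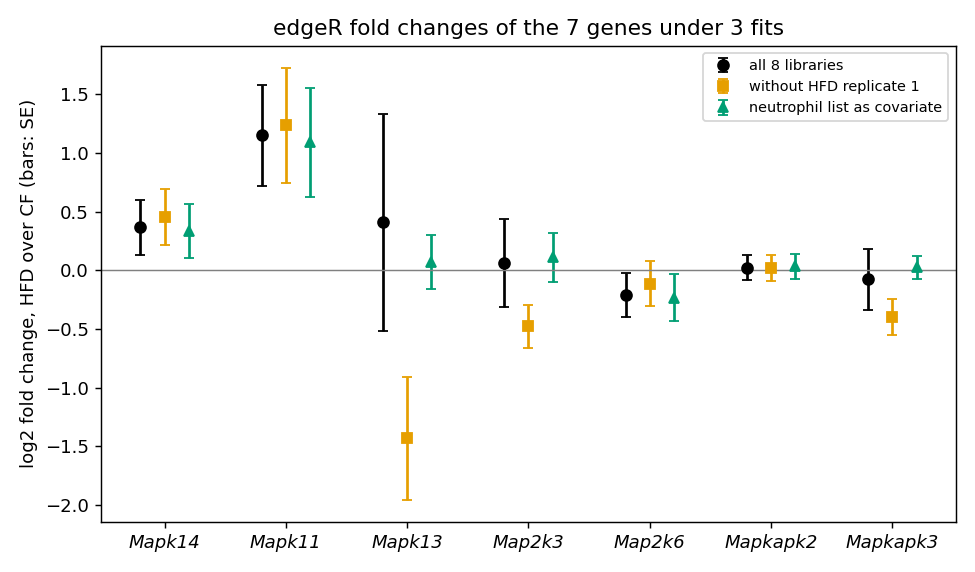
Log2 fold change of HFD over CF with its SE for the 7 genes by edgeR, with all 8 libraries (circles), without HFD replicate 1 (squares) and with the neutrophil list as a covariate (triangles). Mapk13, Map2k3 and Mapkapk3 move with the fit, while Mapk14, Mapk11, Map2k6 and Mapkapk2 move by less than their SE.

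Since HFD replicate 1 was highest for Mapk13, Mapkapk3 and Map2k3, the 250 bases before their RefSeq start (GRCm38.p6) are printed, 5′ to 3′ on the gene's strand. Capitals mark the GC box, GGGCGG or its reverse complement CCGCCC.
Mapk13 (chr17:28769067-28769316, plus strand): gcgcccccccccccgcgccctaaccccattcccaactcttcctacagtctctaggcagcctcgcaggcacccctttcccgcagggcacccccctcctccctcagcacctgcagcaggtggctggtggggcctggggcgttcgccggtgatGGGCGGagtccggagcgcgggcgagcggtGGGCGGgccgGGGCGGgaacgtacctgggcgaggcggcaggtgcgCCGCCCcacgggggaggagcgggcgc
Mapkapk3 (chr9:107289878-107290127, minus strand): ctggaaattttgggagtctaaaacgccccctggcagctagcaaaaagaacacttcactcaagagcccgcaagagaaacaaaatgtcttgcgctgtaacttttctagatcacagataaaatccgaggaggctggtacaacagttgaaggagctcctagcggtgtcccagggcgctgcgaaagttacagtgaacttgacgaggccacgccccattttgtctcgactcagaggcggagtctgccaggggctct
Map2k3 (chr11:60931804-60932053, plus strand): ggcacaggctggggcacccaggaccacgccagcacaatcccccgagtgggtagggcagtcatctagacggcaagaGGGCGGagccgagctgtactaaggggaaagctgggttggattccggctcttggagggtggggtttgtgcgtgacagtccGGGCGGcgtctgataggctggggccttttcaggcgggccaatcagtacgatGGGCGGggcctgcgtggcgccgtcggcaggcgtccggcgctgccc
The GC box occurred 4 times before Mapk13, 3 times before Map2k3 and 0 times before Mapkapk3, and 32.7% of 32851 RefSeq promoter windows of this length held it. The windows of Mapk11, Mapk14 and Mapk12 held it 4, 1 and 1 times, and those of Map2k6 and Mapkapk2 0 times. The motifs TTGCNNAA (C/EBP; 9.56% of windows), GAGGAAGT (PU.1; 2.44%) and TGANTCA (AP-1; 6.75%), searched on both strands, were in none of the 3 windows. The window of Map2k6 held 1 AP-1 motif and that of Mapkapk2 1 PU.1 motif. No match says only that these letters are not in the window.

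Around the members, 7 lists of pathway genes were written from general knowledge, with earlier results of these data known. Of their genes, 98 were tested. None of the 98 was called by edgeR over all libraries, and 7 had an unadjusted p under 0.05, beside 8.56% of all genes. Of the upstream kinases, which are MAP3 kinases and the MAP2 kinase Map2k4 (0.12), 10 of 17 had a positive log2 fold change with a median of 0.034, near the 59.7% and 0.055 of all genes, and without HFD replicate 1 these were 5 of 17 and -0.088, while the median of all genes was 0.029. The lowest p in this list was that of Map3k12, at 11.04 to 18.5 CPM in HFD and 15.9 to 24.6 CPM in CF (log2 fold change -0.60, edgeR adjusted p = 0.38), followed by Map3k20 (-0.16) and Map3k11 (-0.15). Of the activators, adaptors and scaffolds, 13 of 20 were positive with a median of 0.067 (9 of 20 and -0.015 without HFD replicate 1). Here Gadd45b, which binds and activates MAP3 kinases, held 3.92 ± 1.65 CPM in HFD and 7.32 ± 1.03 in CF (SD, n = 4; log2 fold change -0.90, edgeR adjusted p = 0.27), and Tab3 (0.25) and Pak1 (-0.28) came next.

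Of the phosphatases that can remove the activating phosphates of p38, 7 of 11 were positive with a median of 0.16. That median was 0.044 without HFD replicate 4, and 0.35 when only library size scaled the counts, a setting in which all genes had a median of 0.25. Dusp2 lay at 13.6 ± 5.35 CPM in HFD against 21.5 ± 4.18 in CF (SD, n = 4), and its adjusted p by edgeR was 0.50 at a log2 fold change of -0.67. Ppm1d, the p53-induced phosphatase Wip1, lay between 13.4 and 16.1 CPM under HFD and between 11.6 and 13.2 CPM under CF, with no overlap of the diets (log2 fold change 0.25; edgeR, unadjusted p = 0.042, adjusted p = 0.54). Ppp2cb was likewise apart, at 19.8 to 31.1 CPM against 17.1 to 19.5 (adjusted p = 0.63 by edgeR). These were the 2 list genes apart and higher in HFD, beside 2.58% of all genes. The log2 fold changes of the 5 other kinases downstream of p38 lay between -0.065 and 0.17, with the lowest p for Mknk1, Mknk2 and Rps6ka4. Of the transcription factors and RNA binding substrates, 8 of 19 were positive with a median of -0.0061 (10 of 19 and 0.0042 without HFD replicate 1), with the lowest p for Atf1 (0.56), Elk1 (0.35) and Zfp36 (-0.87; adjusted p = 0.78). In the other MAPK cascades, 7 of 15 were positive with a median of -0.066 (5 of 15 and -0.11 without HFD replicate 1), led by Map2k7 (-0.47; adjusted p = 0.51), Nlk (0.23) and Map2k5 (-0.18).

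**Figure D5:**
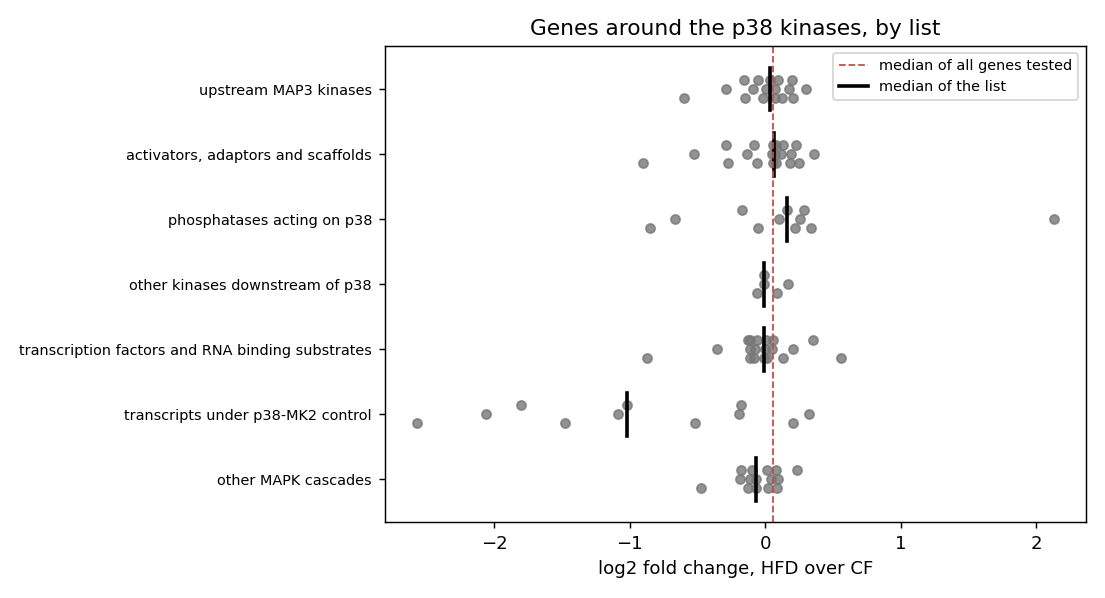
Log2 fold change of HFD over CF (edgeR, all 8 libraries) for each tested gene of the 7 pathway lists, with the median of each list as a black bar and the median of all genes tested as a dashed line. The transcripts under p38-MK2 control have a median of -1.02, and the other lists lie between -0.066 and 0.16; the point at the far right is Dusp8, which was at 0 to 0.286 CPM in CF and was named after its value was seen.

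Of the transcripts whose stability or translation MK2 controls, 2 of 11 were positive and the median log2 fold change was -1.02. None of the 11 was called over all libraries. The lowest p belonged to the chemokine genes Ccl4 (log2 fold change -1.09; adjusted p = 0.37 by edgeR) and Ccl3 (-1.02; adjusted p = 0.43) and to Ptgs2, the gene of cyclooxygenase-2 (-2.57; adjusted p = 0.58). Ptgs2 held 8.34 CPM in HFD replicate 1 and 0.38, 0.34 and 0.24 in HFD replicates 2 to 4, against 5.76, 17.3, 22.0 and 9.80 in CF. HFD replicate 1 lay within the CF range and the other HFD libraries far below it.

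Without HFD replicate 1, edgeR called 7 of the pathway genes lower in HFD, where 1.05% of all genes were called lower and 0.214% higher. They were named after their values were seen and were Gadd45a, Gadd45b, Dusp1, Zfp36 (tristetraprolin), Tnf, Ptgs2 and Ier3. The log2 fold change without this library was -5.42 for Ptgs2, -2.87 for Ier3, -2.17 for Dusp1, -1.76 for Zfp36 and -1.24 for Tnf. Over all 8 libraries it was -2.57, -1.48, -0.85, -0.87 and -0.52, in the same order, and none was called. HFD replicate 1 itself was above every CF library for Gadd45a, Dusp1, Zfp36 and Tnf. It lay within the CF range for Gadd45b, Ptgs2 and Ier3. Without HFD replicate 1, all 11 of the MK2-controlled transcripts were negative. Without replicate 1 of both diets, 10 were called lower (2.21% of all genes, with 0.24% higher), which added Gadd45g, Il1b and Plaur. With the neutrophil list as a covariate, 6 were called lower (3.51% of all genes, with 0.688% higher), namely Gadd45b, Dusp1, Dusp2, Zfp36, Ptgs2 and Ier3. Dusp1, Zfp36, Ier3 and Ptgs2 are known as immediate early genes, and Il1b and Plaur are also transcribed in neutrophils and monocytes. HFD replicates 2 to 4, on which both fits without HFD replicate 1 rest, had neutrophil list levels (mean log2 CPM) of 5.03 to 6.62. The CF libraries were at 6.00 to 7.59, and at 7.35 to 7.59 without CF replicate 1. The log2 fold change of Mapkapk2, the gene of MK2 itself, lay between -0.066 and 0.072 when any 1 library was left out. That is its RNA level and not the activity of MK2. The cause of the lower levels of the called pathway genes was not tested.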

How the data were processed

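Bulk RNA of CDPs was measured in 8 libraries, 4 per diet. According to the study's methods and the submitters' processing notes, the authors aligned paired reads of 75 bases to GRCm38 with HISAT2, kept uniquely mapped pairs and derived raw counts per gene with StringTie on GENCODE, with versions not given in the sources used here. The deposited counts were used unchanged. Columns were matched to libraries by the sample number in their names. No gene had a highest count under 29. Of 16119 genes, 16067 were matched by identifier to GENCODE vM21 for names, positions and exon lengths.

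Counts were tested in R 4.3.3 with edgeR 4.0.16: filterByExpr (15837 genes kept, 282 left out), TMM factors (1.01 to 1.13 in HFD, 0.80 to 1.18 in CF), a quasi-likelihood fit (robust) whose single term was the diet, and Benjamini-Hochberg adjustment at 0.05. A prior count of 2 was used for log2 CPM. Exact two-sided permutation tests ran over all 70 assignments of the diet labels, which can give no p below 0.029 (35 assignments and the same limit without 1 library), and correlations over all 40320 pairings. The p values of the diet tests set a difference against the spread between these libraries. Whether that is a spread between mice or between pools is not given.

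The alternatives were RLE factors, library size alone, DESeq2 1.42.0, limma 3.58.1 with voom, a linear model on log2(FPKM + 1) with FPKM computed from the counts, no filter, at least 1 CPM in 4 libraries as filter, protein-coding genes alone, the replicate number as a block, each library left out, and replicate 1 of both diets left out. The neutrophil list as a covariate was added after seeing the data. The members, lists and rules were chosen with earlier results of these data known. Genes named besides the members are the 3 with the lowest p of each list, the 5 most like Mapk14, the sort markers, S100a8 and Ngp, Map2k4, and those the text says were named later. On simulated counts of 15837 genes with 200 changed, edgeR called 27% of the 2-fold and 84% of the 4-fold changes, and 9.02% of its calls were false, while DESeq2 called 52% and 91% with 28.1% false calls. These counts were drawn independently with dispersions fitted by edgeR, and no library stood apart in them as HFD replicate 1 did.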

Additional observations from a re-analysis of the deposited data

Results flagged for a closer look

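In 4 of the 68 groups of 4 libraries looked at, 1 library stood further from the others than Dixon's limit allows on the log2 scale, where chance gives about 1 in 20. Map2k3 was at 27.73 CPM in HFD replicate 1 and at 9.222 to 10.26 CPM in the other HFD libraries. Ptgs2 was at 8.344 CPM in HFD replicate 1 and at 0.2427 to 0.3775 CPM in the other HFD libraries. Rps6ka4, which encodes the kinase MSK2 downstream of p38, was at 11.67 CPM in CF replicate 2 and at 8.317 to 8.691 CPM in the other CF libraries. The neutrophil list had a mean log2 CPM of 5.998 in CF replicate 1 and of 7.352 to 7.594 in the other CF libraries. On the CPM scale Mapk13 in HFD replicate 1 also passed that limit (gap over range 0.892), which it did not on the log2 scale (0.636). The cause of these values was not tested.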

How the results depend on the processing

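Mapk14, Mapk11 and Map2k6 kept their direction under all alternatives that kept the gene, but not their size: Map2k6 was at -0.015 with library size alone and -0.014 on log2(FPKM + 1), where Mapk11 was at 0.21. No member was called under any. With library size alone, the log2 fold change of Mapkapk3 was 0.099 and 10 genes were called higher in HFD. DESeq2 called 498 genes lower and 71 higher. Its 28.1% false calls came from simulated counts in which no library stood apart, so that share need not hold here. With voom, Mapk13 was at -0.63 and Map2k3 at -0.089. The linear model on log2(FPKM + 1) gave 0.059 for Mapkapk3 and called 0 genes lower (568 at an unadjusted p under 0.05), and with protein-coding genes alone Mapkapk2 was at -0.017 and 0 genes were lower (252). With the replicate block, Mapk13 was at -0.80, Map2k3 at -0.083 and 0 genes were called lower (675), but the numbers do not pair the samples: the correlations of deviations of same-numbered libraries were -0.44, -0.078, -0.23 and -0.18, and no library correlated best with its own number. With the neutrophil covariate, Mapkapk3 was at 0.029, 556 genes were called lower and 109 higher, and 6 pathway genes were called. The causes were not tested.

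Leaving out libraries, HFD replicate 1 with CF replicate 1 included, gave -1.70 to 0.75 for Mapk13, -0.49 to 0.22 for Map2k3, -0.066 to 0.072 for Mapkapk2, -0.49 to 0.053 for Mapkapk3 and -0.32 to 0.44 for the log2 ratio of Map2k3 to Map2k6, and the sign of each turned. The genes called lower in HFD ranged from 0 (755 at an unadjusted p under 0.05 without CF replicate 3) to 350, those called higher from 0 to 38, and the pathway genes called from 0 to 10. The count lower was 166 without HFD replicate 1, 154 without CF replicate 4, and 0 or 1 without any other single library. With 1 library left out, the median log2 fold change of the transcripts under p38-MK2 control was -1.34 to -0.79, and those of the other 6 lists lay between -0.11 and 0.20.

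Depth limits Mapk11 (8 to 42 counts) and Mapk13 (29 counts at the lowest). On simulated counts edgeR called 27% of the 2-fold changes and DESeq2 52%, so an adjusted p above 0.05 does not show equal levels.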
